A study of Homo sapiens with 2 samples.

Results

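The cytosolic ribosomal protein genes encode the proteins that, with ribosomal RNA, build the ribosomes of the cytosol. They were chosen here by symbol, as genes named RPL or RPS with a number (RPSA, RPLP0, RPLP1, RPLP2 and RPS4X included, as well as copies such as RPL3L, RPL7L1 and RPS27L), and through probe sets that name a single gene. The rule found 76 members among 16909 genes, 49 of the large and 27 of the small subunit, with 674 probe sets. Of these, 75 had at least 3 probe sets, as did 16241 of all genes, and all counts below are over those 75 unless stated. The remaining member, RPSA, a protein of the small subunit, had 1 probe set, at 12.21 in HCT116-DKO cells and 12.34 in HCT116-WT cells. A probe set is a small group of array probes, usually within 1 exon, and its value is a log2 signal.

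The arrays compared HCT116-DKO cells, in which DNMT1 and DNMT3b are both disrupted (DNMT1-/- DNMT3b-/-), with HCT116-WT, the human colon cancer line they derive from. HCT116-DKO was the DKO1 line, a single clonal derivative, so that clone and genotype cannot be told apart. Both were kept untreated in McCoy's 5A with FBS at 10%, and total RNA was hybridized to Affymetrix human exon 1.0-ST arrays. There was 1 array per line, which leaves the spread between cultures unknown and allows no test, so all values below describe 2 arrays.

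Each ribosome holds 1 copy of most of these proteins, and the cell makes them in matched amounts. Their messenger RNAs are among the most abundant in growing cells and begin with a tract of pyrimidines, C and T, through which the mTOR pathway and LARP1 control their translation. Several genes have a retained copy elsewhere in the genome, such as RPL10L and RPL39L, whose use is known mainly from male germ cells, and RPS27L, a target of p53. DNMT1 copies DNA methylation after replication and DNMT3B sets it anew, and the comparison asked what the disruption of both genes does to transcription.

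The labels were checked first. DNMT1 was at 9.36 in HCT116-DKO cells and 10.63 in HCT116-WT cells, with 50 of 50 probe sets lower, and DNMT3B was at 6.91 in HCT116-DKO cells and 8.32 in HCT116-WT cells, with 30 of 32 lower. Background was set at 7.30 in HCT116-DKO cells and 7.08 in HCT116-WT cells, the 95th percentile of 286 olfactory receptor genes. DNMT3B was below it in HCT116-DKO cells, whereas DNMT1 was above it in both arrays. The paper proposes that HCT116-DKO cells keep a reduced DNMT1 transcript, presumably for a truncated protein. Of 10 epithelial and colon markers 6 were above background in both arrays and 0 changed. EPCAM, the epithelial adhesion molecule, was at 11.43 in HCT116-DKO cells and 11.81 in HCT116-WT cells, whereas the intestinal villin gene VIL1 was below background in both. Of 7 fibroblast markers 1 rose, THY1, at 7.64 in HCT116-DKO cells and 6.23 in HCT116-WT cells, and blood (5) and endothelial (5) markers had 0 changes. The median over all probe sets was 8.37 in HCT116-DKO cells and 8.28 in HCT116-WT cells, and the gene differences had a median of 0.02.

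The start sites of ribosomal protein genes share a sequence that the choice by symbol did not use. Windows from 20 bases before to 20 bases after the annotated start are shown for some of the lowest members and for RPS25, which was higher. They are RefSeq sequence of GRCh38.p14, 5′ to 3′ along the gene. RPLP1 and RPS7, also among the lowest, are not shown, and RPL7 had no entry among the promoter sequences. Capitals mark the longest run of C and T that touches the bases from 10 before to 20 after the start.
RPL17, chr18:49492446-49492485, minus strand: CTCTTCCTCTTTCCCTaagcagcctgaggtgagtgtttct
RPL24, chr3:101686699-101686738, minus strand: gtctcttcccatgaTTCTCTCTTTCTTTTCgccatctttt
RPL7A, chr9:133348198-133348237, plus strand: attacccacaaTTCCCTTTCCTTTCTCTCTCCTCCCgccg
RPL10A, chr6:35468381-35468420, plus strand: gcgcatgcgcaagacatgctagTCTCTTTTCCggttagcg
RPS24, chr10:78033843-78033882, plus strand: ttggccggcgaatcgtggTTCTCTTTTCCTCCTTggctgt
RPS25, chr11:119018324-119018363, minus strand: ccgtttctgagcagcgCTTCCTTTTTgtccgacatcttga
RPL3, chr22:39319604-39319643, minus strand: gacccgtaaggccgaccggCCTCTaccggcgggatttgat
RPL17 carried a run of 16 bases just before its annotated start, RPL24 and RPS24 runs of 16, RPL7A a run of 25, RPL10A and RPS25 runs of 10, and RPL3 a run of 5. Runs of at least 10 were thus seen in RPL17, RPL24, RPL7A, RPL10A and RPS24, which were lower, and in RPS25, which was higher in every probe set. RPL3, also lower, had only its run of 5. Whether such runs go with the direction of the difference was not tested. Of 62 members with an entry, 52 (83.9%) had a run of at least 8 at an annotated start, against 22.5% of 15843 genes. No entry was given for RPL3L, RPL5, RPL7, RPL8, RPL13L, RPL23, RPL23A, RPL30, RPL39L, RPS2, RPS15A and RPS20. The 10 members with an entry but no such run were RPL3, RPL6, RPL7L1, RPL10L, RPL12, RPL36, RPS3A, RPS4X, RPS27L and RPS29. Over the 300 bases from 250 before to 50 after the start, on both strands, CCGGAA, the core letters bound by ETS factors such as GABPA, was found in 34 members (54.8%) against 26.6% of genes. ATGGCG, core letters of YY1 sites, which also hold a start codon, was found in 25 (40.3%) against 17.0%, and TATAAA in 6 (9.68%) against 12.4%. These matches are letters only, and no binding was measured.

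Most ribosomal protein genes were slightly lower in HCT116-DKO cells than in HCT116-WT cells. The median difference, HCT116-DKO minus HCT116-WT, was -0.13 on the log2 scale (1.09-fold), with the middle of the distribution between -0.21 and -0.08. Of the 75 members 65 had a difference below 0 (86.7%), whereas 46.2% of all genes did. In 25 members every probe set was lower (33.3%, against 5.21% of all genes), and in 1, RPS25, every probe set was higher (1.33%, against 5.46%). Most members lay in a narrow band at high signal, as the plot of difference against level shows, with 67 of the 75 at a level of at least 10.

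**Figure D1:**
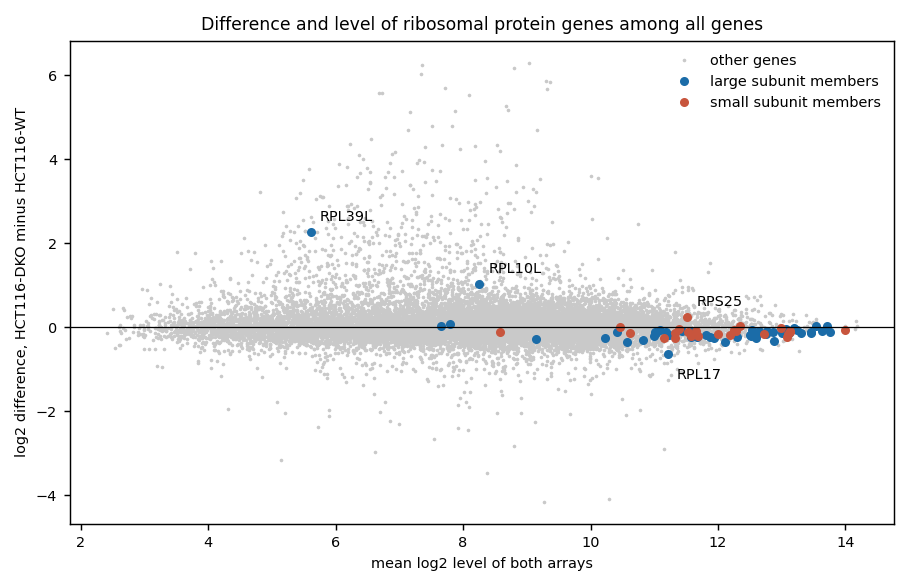
Mean log2 level of both arrays (x) and log2 difference, HCT116-DKO minus HCT116-WT (y), of each gene with at least 3 probe sets, 1 array per line. Grey points are other genes, blue points large subunit and red points small subunit members (Y-linked members are not drawn), and apart from RPL39L and RPL10L the members lie close to 0, mostly below it.

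Few members passed a rule of size. For a gene to count as changed, it had to differ by at least 1 on the log2 scale, at least 75% of its probe sets had to run in that direction, and the higher of its levels had to exceed the background of that array. By this rule 1 member rose, RPL10L, and 0 fell, against 2.66% of all genes that rose and 0.536% that fell. With a difference of 0.58 (1.5-fold) in place of 1, 1 member rose, again RPL10L (5.66% of all genes), and 1 fell, RPL17 (1.8% of all genes). The shares of members, 1.33% in each of these cases but for the 0, were thus below or close to those over all genes, and the shift of the members was one of many small differences of 1 sign.

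**Figure D2:**
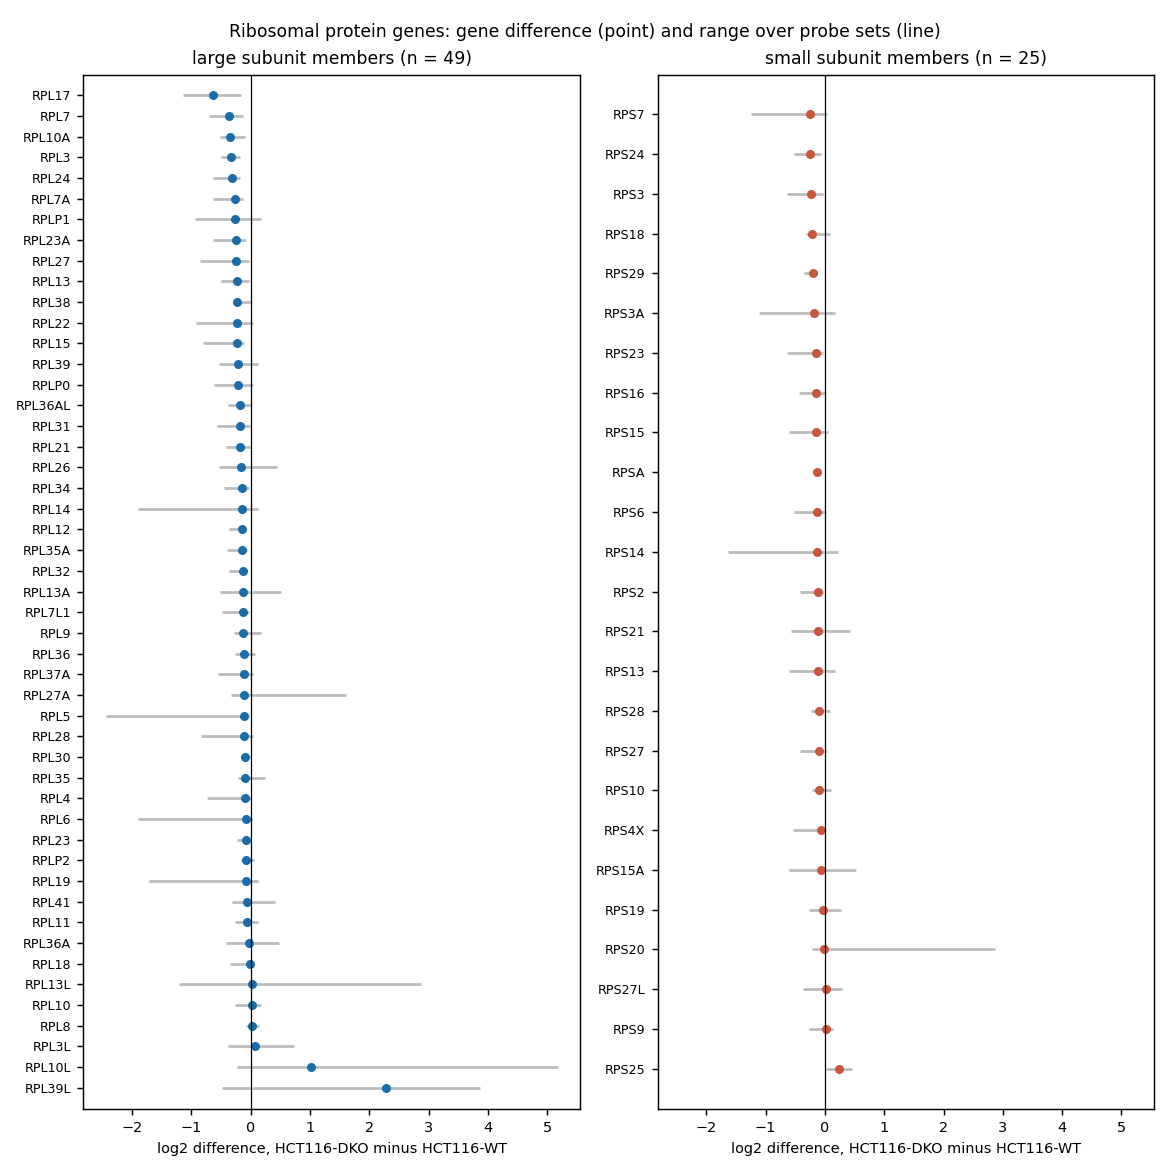
Log2 difference, HCT116-DKO minus HCT116-WT (x), of 49 large subunit members (left) and 25 small subunit members (right), sorted; points are gene differences and grey lines run from the lowest to the highest probe set of the gene (1 array per line, RPSA drawn with its 1 probe set, Y-linked members not drawn). RPL17 lies lowest at -0.64, RPL10L lies at 1.02, RPL39L was below background in both arrays so that its position is not a measured change, and most other points sit just left of 0.

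Genes of both subunits lay mostly below 0. The 49 large subunit members had a median of -0.14 and 43 were below 0, and the 26 small subunit members with at least 3 probe sets had a median of -0.12 and 22 were below 0. Without the copies, the pseudogene and the Y-linked members, 66 members remained, of which 62 were below 0 (93.9%) with a median of -0.14. All 66 were above background in both arrays. The 43 large subunit genes among them included 18 in which every probe set was lower, and the 23 small subunit genes included 6. The exceptions, with a difference above 0, were RPL8, RPL10, RPS9 and RPS25.

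RPL17, a protein near the exit of the nascent chain tunnel, was the member that fell past 1.5-fold. It was at 10.89 in HCT116-DKO cells and 11.53 in HCT116-WT cells, a difference of -0.64 (1.55-fold lower; SD over probe sets 0.37, n = 5). Its 5 probe sets were at 11.03, 13.36, 9.48, 7.51 and 11.05 in HCT116-DKO cells, against 11.39, 13.54, 10.22, 8.64 and 11.68 in HCT116-WT cells. All were lower, by 0.17 to 1.14 in size, and the brightest differed least. A further probe set that names both RPL17 and the small nucleolar RNA gene SNORD58B, which lies within it, was at 11.28 in HCT116-DKO cells and 11.94 in HCT116-WT cells. When the gene level was taken as the median of the probe sets, the difference was -0.36, short of 1.5-fold.

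Other large subunit members lay lower by less than 1.5-fold, with probe sets that ran the same way. RPL7 was at 10.40 in HCT116-DKO cells and 10.76 in HCT116-WT cells (-0.36, 7 of 7 probe sets lower). RPL10A, a protein of the mobile L1 stalk, was at 11.93 in HCT116-DKO cells and 12.28 in HCT116-WT cells (-0.35, 12 of 12). RPL3, which reaches towards the peptidyl transferase centre, was at 12.72 in HCT116-DKO cells and 13.05 in HCT116-WT cells (-0.33, 14 of 14). In these genes no probe set crossed 0. RPL24, at the interface between the subunits, was at 10.66 in HCT116-DKO cells and 10.97 in HCT116-WT cells (-0.31, 7 of 7). RPL7A was at 9.01 in HCT116-DKO cells and 9.28 in HCT116-WT cells (-0.27, 3 of 3). With the median of the probe sets as the gene level RPL7A differed by -0.64, past 1.5-fold. By identification number, all 7 probe sets of RPL7 lie among those of chromosome 1 members such as RPL22 and RPS27, whereas RPL7 is on chromosome 8. Those of RPL7A follow the probe sets of RPL36AL on chromosome 14, whereas RPL7A is on chromosome 9. Whether these probe sets detect RPL7 and RPL7A or copies elsewhere in the genome was not tested. RPL22, which is also known for binding a small RNA of Epstein-Barr virus, was at 11.55 in HCT116-DKO cells and 11.79 in HCT116-WT cells (-0.24, 7 of 8). RPL13A, known also as part of a complex that silences inflammatory transcripts, was at 13.40 in HCT116-DKO cells and 13.53 in HCT116-WT cells, and 13 of its 15 probe sets were lower.

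The 3 proteins of the stalk, which recruits the elongation factors, were all below 0 with a median of -0.21. RPLP1 was at 12.46 in HCT116-DKO cells and 12.72 in HCT116-WT cells, with 6 of 7 probe sets lower. RPLP0, the base of the stalk, was at 12.41 in HCT116-DKO cells and 12.62 in HCT116-WT cells, with 14 of 17 lower. RPLP2, the partner of RPLP1, differed least, at 12.73 in HCT116-DKO cells and 12.81 in HCT116-WT cells, with 3 of 5 lower. RPL5 and RPL11, which join 5S ribosomal RNA and, when free, bind MDM2, the inhibitor of p53, both lay slightly lower. RPL5 was at 13.40 in HCT116-DKO cells and 13.51 in HCT116-WT cells, with 11 of 11 probe sets lower. RPL11 was at 13.22 in HCT116-DKO cells and 13.28 in HCT116-WT cells, with 4 of 7 lower.

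Among the small subunit members, none passed 1.5-fold. RPS7, which when free can bind MDM2, was at 11.19 in HCT116-DKO cells and 11.45 in HCT116-WT cells (-0.26, 6 of 7 probe sets lower). RPS24 was at 11.03 in HCT116-DKO cells and 11.28 in HCT116-WT cells (-0.25, 4 of 4). RPS3, which lines the entry of the messenger RNA channel and is also known in DNA repair, was at 12.97 in HCT116-DKO cells and 13.20 in HCT116-WT cells (-0.23, 14 of 14). These 3 were the lowest of the small subunit genes in the plot of member differences. RPS6, the substrate of the S6 kinases, was at 11.27 in HCT116-DKO cells and 11.40 in HCT116-WT cells, with 8 of 9 lower. RPS19, the gene most often mutated in Diamond-Blackfan anaemia, was at 11.37 in HCT116-DKO cells and 11.40 in HCT116-WT cells, and its probe sets were divided, 5 lower and 5 higher. The 16 measured members known from that anaemia all had a difference below 0, between -0.26 and -0.02, with a median of -0.13.

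RPS25, which is needed for initiation at several viral internal ribosome entry sites, ran the other way. It was at 11.64 in HCT116-DKO cells and 11.40 in HCT116-WT cells, a difference of 0.24 (SD over probe sets 0.17, n = 6) that did not pass 1.5-fold. Its probe sets were at 7.38, 10.18, 10.53, 13.30, 12.69 and 14.56 in HCT116-DKO cells, against 7.09, 9.73, 10.22, 13.28, 12.64 and 14.38 in HCT116-WT cells. Every probe set was higher, the brightest 3 by 0.01 to 0.18 and the other 3 by 0.30 to 0.46. The other core members above 0 were RPL8, RPL10 and RPS9. RPL8, a protein near the peptidyl transferase centre, was at 13.73 in HCT116-DKO cells and 13.70 in HCT116-WT cells. RPS9 was at 12.35 in HCT116-DKO cells and 12.33 in HCT116-WT cells. RPL10, which joins the large subunit late, differed by 0.02, and the differences of all 3 were smaller than the spread of their own probe sets (SD 0.06 for RPL8, 0.13 for RPS9 and 0.11 for RPL10). The same held for many members below 0, such as RPS7 (-0.26, SD 0.44), RPLP1 (-0.26, SD 0.35) and RPL22 (-0.24, SD 0.34). Others below 0, such as RPL10A (-0.35, SD 0.13) and RPL3 (-0.33, SD 0.10), differed by more than that spread.

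The retained copies were divided. The 7 copies and pseudogenes that are not Y-linked had a median difference of 0.02, and 2 were below 0, RPL36AL and RPL7L1. The 3 copies whose parent also had a window are shown beside it, with the run of C and T again in capitals. RPL10 has 3 annotated starts, and the one whose run begins nearest to it was chosen, whereas each of the others shown has 1 start.
RPL10L, chr14:46651762-46651801, minus strand: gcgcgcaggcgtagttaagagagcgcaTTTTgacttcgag
RPL10, chrX:154398357-154398396, plus strand: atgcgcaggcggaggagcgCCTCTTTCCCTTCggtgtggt
RPS27L, chr15:63157458-63157497, minus strand: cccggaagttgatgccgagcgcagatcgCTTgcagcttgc
RPS27, chr1:153990742-153990781, plus strand: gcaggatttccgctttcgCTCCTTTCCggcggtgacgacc
RPL36AL, chr14:49620607-49620646, minus strand: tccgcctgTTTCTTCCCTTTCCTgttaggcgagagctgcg
RPL36A, chrX:101390991-101391030, plus strand: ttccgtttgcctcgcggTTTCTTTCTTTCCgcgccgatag
RPL10L had a longest run of 4 and RPS27L of 3, whereas the windows of their parents RPL10 and RPS27 held runs of 13 and 9. RPL36AL went the other way, with a run of 15 beside 13 in RPL36A. RPL10L was at 8.77 in HCT116-DKO cells and 7.74 in HCT116-WT cells, 2.03-fold higher (difference 1.02, SD over probe sets 2.40, n = 4). Its 4 probe sets were at 9.23, 10.12, 10.35 and 5.39 in HCT116-DKO cells, against 4.06, 9.61, 10.59 and 3.85 in HCT116-WT cells. The gene's rise thus rested on unlike probe sets. One was higher by 5.18 and above background in HCT116-DKO cells only, 1 was higher by 1.55 with both values below background, and the 2 bright ones differed by 0.50 and -0.24. The difference was 0.93 with the array medians set equal and 0.90 after quantile normalization, both short of 1. It was 1.75 with the mean and 2.84 with the median of the probe sets as the gene level, and with only probe sets above background RPL10L kept too few for a level. RPL10L lacks introns and is close in sequence to RPL10, and whether the bright probe sets also detected RPL10 was not tested. RPL10 itself, on the X chromosome, was at 13.55 in HCT116-DKO cells and 13.53 in HCT116-WT cells.

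The 250 bases upstream of RPL10L, RPL10 (at the same start) and, for contrast, RPL17 are shown with CG dinucleotides in capitals. The disruption of DNMT1 and DNMT3B bears on these dinucleotides.
RPL10L, chr14:46651782-46652031, minus strand: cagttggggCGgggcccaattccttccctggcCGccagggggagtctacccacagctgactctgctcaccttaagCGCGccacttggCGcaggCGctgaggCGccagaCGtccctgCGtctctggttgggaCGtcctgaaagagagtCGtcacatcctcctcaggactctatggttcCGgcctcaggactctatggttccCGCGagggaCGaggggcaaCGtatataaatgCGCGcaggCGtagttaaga
RPL10, chrX:154398127-154398376, plus strand: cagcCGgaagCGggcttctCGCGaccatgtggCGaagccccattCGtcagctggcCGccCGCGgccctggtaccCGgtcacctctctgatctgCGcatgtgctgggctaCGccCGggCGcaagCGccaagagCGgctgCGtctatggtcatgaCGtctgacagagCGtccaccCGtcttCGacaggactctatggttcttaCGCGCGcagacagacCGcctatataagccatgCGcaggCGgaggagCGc
RPL17, chr18:49492466-49492715, minus strand: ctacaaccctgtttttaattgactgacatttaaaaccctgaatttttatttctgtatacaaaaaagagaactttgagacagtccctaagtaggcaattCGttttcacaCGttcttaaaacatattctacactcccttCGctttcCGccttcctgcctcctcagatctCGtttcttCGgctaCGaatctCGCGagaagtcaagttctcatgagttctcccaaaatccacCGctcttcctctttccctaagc
These stretches held 19 CG dinucleotides in RPL10L, 28 in RPL10 and 10 in RPL17. Over the whole 300 bases RPL17 had 12, the lowest of the 62 members, whose median was 25 (highest 44) beside a median of 24 over all genes. Genes with several starts were counted at the start with most CG. RPL32 and RPL35A, each with a difference of -0.14, had 13, and RPL3 and RPL10A, among the lowest members by difference, had 32 and 31. A link between CG count and difference was not tested. No methylation value was used here.

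RPL39L showed the same mixture of probe sets. Its gene level was 6.75 in HCT116-DKO cells and 4.47 in HCT116-WT cells, below background in both, so that it was not counted as changed and no fold is given. Of its 7 probe sets 5 were higher, at 5.87, 5.11, 5.85, 6.70 and 8.25 in HCT116-DKO cells, against 5.34, 2.83, 3.30, 2.84 and 4.43 in HCT116-WT cells. Only the last of these was above background in HCT116-DKO cells, with a difference of 3.82. The other 2 were bright in both arrays, at 10.31 and 10.14 in HCT116-DKO cells and 10.80 and 10.28 in HCT116-WT cells. Whether they also detected RPL39 was not tested. The parent RPL39, at 10.89 in HCT116-DKO cells and 11.10 in HCT116-WT cells, had 7 of 8 probe sets lower.

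**Figure D3:**
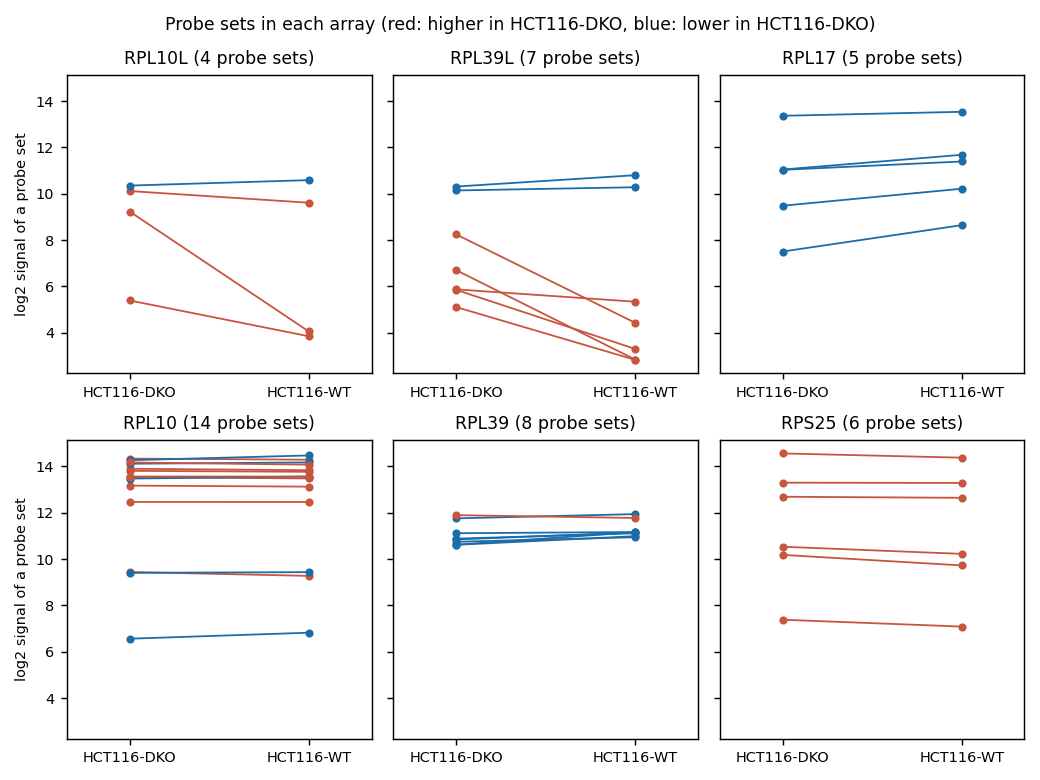
Log2 signal of each probe set (y) in the HCT116-DKO array (left) and the HCT116-WT array (right) for RPL10L, RPL39L, RPL17, RPL10, RPL39 and RPS25; a line joins the 2 values of a probe set, red where higher in HCT116-DKO and blue where lower. In RPL10L and RPL39L some lines drop steeply to the right while 2 near the value of 10 stay flat, whereas all 5 lines of RPL17 climb to the right and all 6 of RPS25 descend slightly.

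The other copies differed little. RPS27L was at 10.47 in HCT116-DKO cells and 10.46 in HCT116-WT cells, and its parent RPS27 at 11.61 in HCT116-DKO cells and 11.70 in HCT116-WT cells. RPL36AL was at 11.72 in HCT116-DKO cells and 11.91 in HCT116-WT cells, with 5 of 6 probe sets lower, and its X-linked parent RPL36A at 13.06 in HCT116-DKO cells and 13.09 in HCT116-WT cells. RPL3L, which replaces RPL3 in striated muscle, was at 7.84 in HCT116-DKO cells and 7.76 in HCT116-WT cells, with its 12 probe sets divided 6 to 6. RPL3L lay close to background, with several probe sets below it, so whether it shared the lower level of its parent RPL3 cannot be told. RPL7L1, a paralogue known from ribosome assembly, was at 10.97 in HCT116-DKO cells and 11.09 in HCT116-WT cells, with 7 of 7 lower. RPL13L, a symbol that now stands for a pseudogene, was at 7.66 in HCT116-DKO cells and 7.64 in HCT116-WT cells. RPS4X, which escapes X inactivation, was at 13.97 in HCT116-DKO cells and 14.03 in HCT116-WT cells. The members RPS4Y1 and RPS4Y2 are Y-linked and were counted only.

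The negative differences were found at all levels at which members were common, and from a level of 10 upwards they were smaller at high signal. In the gene level range of 10 to 11 the 7 members had a median of -0.22, from 11 to 12 the 22 members -0.16, from 12 to 13 the 21 members -0.15, and from 13 to 15 the 17 members -0.10. Other genes in the same ranges had medians of 0.02, -0.02, 0.01 and -0.02. Over all levels of at least 10, 62 of 67 members were below 0 (92.5%), and 1285 of 2674 other genes (48.1%). Single probe sets showed this order from 10 upwards but not below it. From 8 to 10 the members' 73 probe sets had a median of -0.18, from 10 to 12 the members' 150 probe sets had a median of -0.23, from 12 to 13 the 159 had -0.14, from 13 to 14 the 157 had -0.10, and from 14 to 15 the 47 had -0.04. The highest values on the arrays were 14.92 in HCT116-DKO cells and 14.99 in HCT116-WT cells, and 239 member probe sets in 57 members exceeded the 99th percentile of an array (12.91 in both). The part of the upper end of the scale in the size of the differences was not tested.

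**Figure D4:**
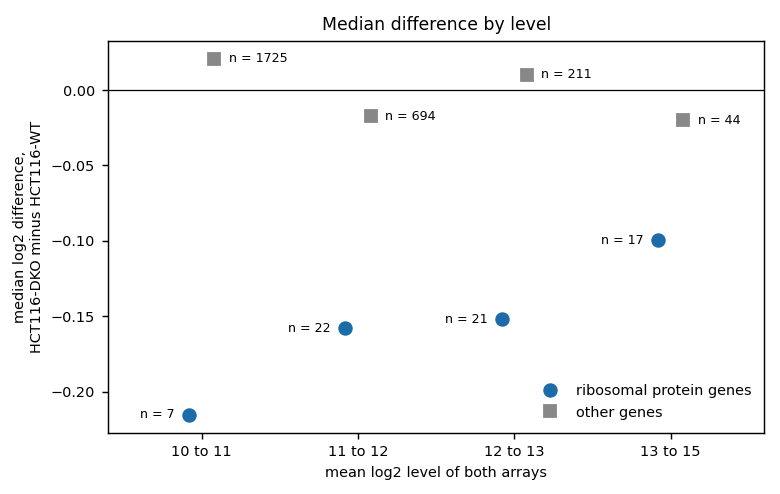
Median log2 difference, HCT116-DKO minus HCT116-WT (y), in 4 ranges of the mean log2 level of both arrays (x), for ribosomal protein genes (blue circles) and other genes (grey squares), with the number of genes beside each point. The members lie below the other genes in each range, from -0.22 at 10 to 11 to -0.10 at 13 to 15.

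Over single probe sets, 546 of 674 were lower in HCT116-DKO cells (81.0%), against 47.3% of those of other genes. Among probe sets above background in both arrays the numbers were 506 of 604 (83.8%) against 47.6%. A further 15 probe sets named a member together with another gene and were left out of the levels. Of these 12 were lower, with a median of -0.14, among them 9 of RPSA with 7 lower. RPL29, RPL37 and RPS26 had no probe set of their own and so are no members, and of the 18 probe sets they share with another gene 13 were lower, with a median of -0.13. Few member probe sets departed from the rest of their gene. In 66 members with at least 5 probe sets and a level above background, 9 of 626 probe sets (1.44%) departed by at least 1 from the median of their gene, against 2.56% over all genes. They lay in 8 genes, RPL5, RPL6, RPL13L, RPL14, RPL19, RPL27A, RPS14 and RPS20, and none of the 9 was above background in both arrays. The RPL5 probe set, for example, was at 2.92 in HCT116-DKO cells and 5.36 in HCT116-WT cells. Some members, such as RPL4, RPL6, RPL15 and RPS14, hold probe sets whose identification numbers lie among those of other chromosomes. The departing probe sets of RPL6 and RPS14 were among these. Whether such probe sets detect the gene itself or a copy elsewhere was not tested.

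Genes that work with the ribosomal proteins were described from lists, beside the median of 0.02 over all genes. Of 68 ribosome assembly factors 53 were below 0, with a median of -0.14, and 0 changed. The lowest 2 were RIOK1, a kinase of small subunit maturation (9.66 in HCT116-DKO cells and 10.23 in HCT116-WT cells), and nucleolin, NCL (10.81 in HCT116-DKO cells and 11.39 in HCT116-WT cells), each with 25 of 25 probe sets lower. Of 15 genes of the RNA polymerase I machinery, which transcribes ribosomal RNA, 12 were below 0 with a median of -0.13, and 0 changed. Its subunit gene POLR1B was at 9.94 in HCT116-DKO cells and 10.48 in HCT116-WT cells, with 19 of 19 lower, and POLR1D at 9.39 in HCT116-DKO cells and 9.64 in HCT116-WT cells. All 5 small nucleolar RNA host genes were below 0, with a median of -0.24, and the lowest of them was EPB41L4A-AS1 (9.74 in HCT116-DKO cells and 10.22 in HCT116-WT cells). The lists overlap here, since the host gene TAF1D was also counted with RNA polymerase I and the host gene EIF4A2 with the translation factors. Assembly factors and RNA polymerase I genes thus had medians near that of the members.

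Of 40 translation factors and other genes often grouped with them 28 were below 0, with a median of -0.12. EIF5B, which joins the subunits at initiation, fell (9.64 in HCT116-DKO cells and 10.74 in HCT116-WT cells, 32 of 33 lower). VIM, which encodes the filament protein vimentin and no translation factor, rose (11.90 in HCT116-DKO cells and 8.35 in HCT116-WT cells). Mitochondrial ribosomal proteins, which serve a separate ribosome, had 51 of 73 below 0 with a median of -0.08, and 0 changed. MRPL24 was at 11.05 in HCT116-DKO cells and 11.51 in HCT116-WT cells, and MRPS12 at 9.09 in HCT116-DKO cells and 8.51 in HCT116-WT cells. Regulators of ribosomal protein synthesis were divided, 11 of 21 below 0 with a median of -0.02, and MXD1, a repressor in the MAX network, rose past 1.5-fold (8.88 in HCT116-DKO cells and 8.02 in HCT116-WT cells). MYC, a transcription factor that drives ribosomal protein genes and was named after its values were seen, was at 10.15 in HCT116-DKO cells and 11.12 in HCT116-WT cells but did not pass the rule. Of its 3 probe sets 2 were lower, at 11.87 and 10.04 in HCT116-DKO cells against 12.84 and 11.24 in HCT116-WT cells, and the other was below background in both arrays. A further 3 that the platform names for MYC and MRTL together were at 12.58, 11.34 and 11.68 in HCT116-DKO cells, against 13.73, 12.89 and 12.79 in HCT116-WT cells. All 5 probe sets above background were thus lower. Whether MYC or MXD1 bears on the levels of the members was not tested. Of 26 p53 targets 3 rose by at least 1, TP53I3 (1.27), GADD45B (1.23) and TIGAR (1.18), as did 2.66% of all genes. At 1.5-fold TP53INP1 (0.64) rose as well, which makes 4, and 3 fell, GADD45A (-0.82), FAS (-0.65) and SESN2 (-0.58). Over all genes 5.66% rose and 1.8% fell at that size. The list's median was -0.01, with 14 below 0. The cumulative plot shows the members as the steepest of these curves, which cross 0 at higher percentages than that of other genes.

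**Figure D5:**
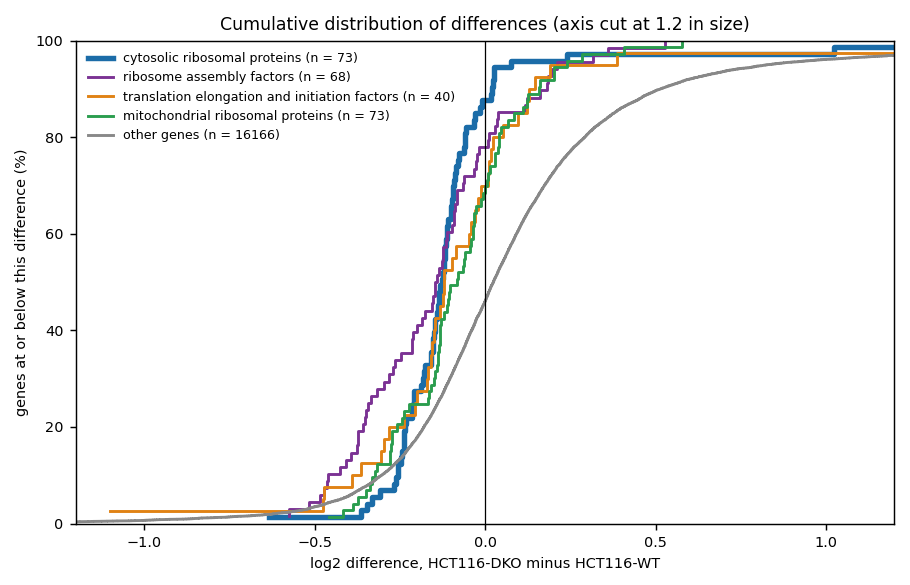
Percentage of genes (y) at or below each log2 difference, HCT116-DKO minus HCT116-WT (x, shown from -1.2 to 1.2), for 73 ribosomal protein genes (Y-linked members not drawn), 68 ribosome assembly factors, 40 translation factors and genes often grouped with them, 73 mitochondrial ribosomal proteins and 16166 other genes. The curve of the ribosomal protein genes climbs most steeply, just left of 0, and the curve of other genes crosses 0 at 46.1%.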

How the data were processed

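Total RNA of HCT116-DKO and HCT116-WT cells was profiled on 1 exon array each. The authors deposited log2 signals per probe set; the submitters' notes name RMA. The methods name Expression Console and Partek, and the sources used here do not say which of them made these values. Probe sets (287329) were named from the 2014 platform annotation, and 261273 of 1 gene (90.9%) were used. Gene levels were median polish fits over at least 3 probe sets. Genes were named by RefSeq symbol, with members as the platform gives them. The number of arrays limits the precision, and no test was made. SDs over probe sets are not replicate errors.

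The members and lists were chosen with earlier results of these data known. Named were members past a rule of size, the 8 largest differences in each direction, copies with parents, stalk and 5S proteins and a few well-known members. Of each list up to 4 genes were named, but of the p53 targets every gene past 1.5-fold. The lists were translation factors, assembly factors, RNA polymerase I, regulators, small nucleolar RNA hosts, p53 targets, mitochondrial ribosomal proteins and cell markers. Alternatives changed scaling, gene level, probe sets, minimum, background and threshold. Scripts were tested on simulated data (Python 3.11.15, numpy 2.4.6, pandas 2.3.3). Promoter sequences were RefSeq's, GRCh38.p14, and the study used hg18.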

Additional observations from a re-analysis of the deposited data

How the results depend on the processing

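With 1 array per line no replicate could be left out, and culture, clone, labelling and array cannot be told apart from genotype. No paired analysis was possible because each group had 1 sample. The median of the members stayed below 0 in every alternative run, between -0.22 with the array medians set equal and -0.12 with only probe sets above background, and 85.3% to 96.0% of the members that an alternative kept were below 0. With the array medians set equal all genes had a median of -0.07 and 60.1% were below 0, and after quantile normalization -0.07 and 59.2%, against 46.2% as deposited; 6 and 3 of 73 members changed sign.

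The number of members that rose by at least 1 was 0 with array medians set equal (RPL10L at 0.93), 0 after quantile normalization (0.90) and 0 with only probe sets above background, where RPL10L had too few probe sets, and the number past 1.5-fold was then also 0. With the median of the probe sets 2 members fell past 1.5-fold, RPL27 (-0.76) and RPL7A (-0.64), and RPL17 did not (-0.36). Departing probe sets numbered 3 at a departure of at least 2 and 0 with only probe sets above background. Leaving out the copies, the pseudogene and the Y-linked members, chosen after seeing the data, gave a median of -0.14.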

Other observations

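RPL26L1, a copy of RPL26 whose symbol the rule did not take in, was at 7.53 in HCT116-DKO cells and 7.24 in HCT116-WT cells, with 5 of 6 probe sets higher. FAU, which encodes RPS30 as a fusion with a ubiquitin-like protein, was at 12.34 in HCT116-DKO cells and 12.33 in HCT116-WT cells, with 3 of 6 higher. NPM1, a nucleolar chaperone of ribosome assembly, was at 12.90 in HCT116-DKO cells and 13.20 in HCT116-WT cells, with 17 of 18 lower. None of these passed 1.5-fold.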
